A study of Mus musculus with 2 samples.

Results

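Macrophages of the fetal gut and the CSF1 receptor axis that maintains them were described by 10 genes in the intestine of mouse embryos. The genes were the receptor Csf1r, its ligands Csf1 and Il34, the complement genes C1qa, C1qb and C1qc, the surface receptors Adgre1, Cx3cr1 and Mrc1, and the lysozyme gene Lyz2. They were taken by name, and all 10 were found among the 43346 gene identifiers of the tables, of which 21474 were matched to protein-coding genes. The samples were 2 libraries of total RNA longer than 200 nt from the intestine of healthy B6NCrl mouse embryos at embryonic day 16.5, named replicate 1 and replicate 2. Each was made from a separate pool in which male and female embryos were mixed. Replicate 2 drew on 41 embryos, and the number in replicate 1 was not given in the sources used here. In the labels the pools are numbered as biological replicates 1 and 2, with separate biosample entries and the same donor identifier. There was a single group with no treatment, genotype or other tissue to compare, so the genes were compared with each other, with all protein-coding genes and between the pools.

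CSF1R is a receptor tyrosine kinase of the macrophage lineage, and most tissue macrophages depend on it for survival and proliferation. Its ligands CSF1 and IL-34 are made by other cells of the tissue, and which of them predominates differs between organs. In the gut wall, macrophages clear dying cells, take up microbes and live close to the epithelium, vessels and enteric neurons.

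The libraries held 42040766 and 41480301 expected counts, which are estimated reads. Levels are in TPM, a relative abundance of transcripts that corrects for transcript length, so that genes can be ranked within a library. All 10 genes were detected, meaning at least 1 TPM in both libraries, against 13311 of 21474 protein-coding genes (62.0%). Their median was 18.0 ± 2.15 TPM (SD, n = 2), with 4.46 TPM for the median protein-coding gene. For the 13509 protein-coding genes with a mean of at least 1 TPM the median was 16.6 TPM, close to that of the 10 genes. In RNA from a whole tissue, fewer macrophages and less RNA per macrophage cannot be told apart, and the type of cell that made a transcript was not measured.

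**Figure D1:**
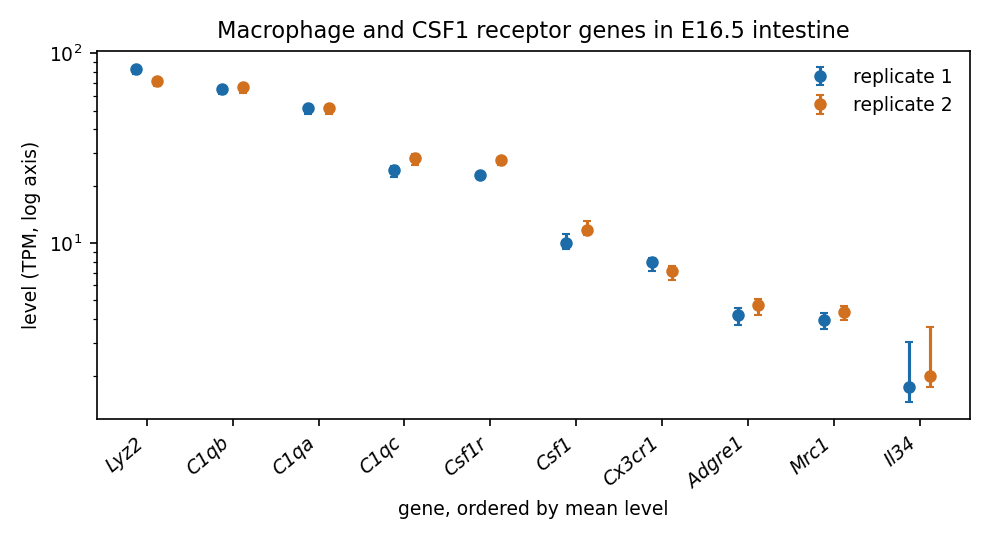
Level of each of the 10 genes in TPM on a log axis, with 1 point for each library and bars for the deposited interval of TPM, whose level is not stated in the files. Lyz2, C1qb and C1qa stand above 50 TPM in both libraries and Il34 is lowest, with the widest bars.

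The order of the mean levels, from the highest, was Lyz2, C1qb, C1qa, C1qc, Csf1r, Csf1, Cx3cr1, Adgre1, Mrc1 and Il34. The means were 77.1 ± 8.21 TPM for Lyz2, 65.7 ± 0.721 for C1qb, 51.7 ± 0.177 for C1qa and 26.2 ± 2.71 for C1qc (SD, n = 2 throughout). Those of the lower genes were 10.9 ± 1.22 TPM for Csf1, 7.52 ± 0.580 for Cx3cr1, 4.45 ± 0.375 for Adgre1, 4.14 ± 0.269 for Mrc1 and 1.88 ± 0.184 for Il34. C1qb, in the second place, lay above 88.3% of protein-coding genes and the lowest, Il34, above 41.8%. Neighbours in this order were called apart when both libraries gave the same direction and the mean log2 ratio of TPM (with 0.1 added to each value, as in all ratios between genes) exceeded 3 SD. By that rule 6 of 9 neighbouring steps were apart, and the share of all gene pairs that would pass it was not computed. Lyz2 and C1qb, C1qc and Csf1r, and Csf1 and Cx3cr1 were not apart by it, although the TPM intervals of Csf1 and Cx3cr1 did not overlap. Adgre1 and Mrc1 were apart by the rule at a 1.07-fold difference, but their TPM intervals overlapped. With 2 libraries an exact sign-flip test cannot give a 2-sided p below 0.5, so these calls are given with no p.

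Csf1r (ENSMUSG00000024621.11, chr18:61100598-61132149, plus strand, mm10) was at 22.98 TPM in replicate 1 and 27.34 TPM in replicate 2. Its mean of 25.2 ± 3.08 TPM (SD, n = 2) lay above 75.1% of protein-coding genes and rested on 3070 and 3588 expected counts. Csf1r was 1.94-fold above Kit, the related receptor for stem cell factor. It was far above Flt3, the related receptor of early blood and dendritic cell progenitors, which stood at 0.26 and 0.28 TPM from 27 and 28 counts. The size of the ratio to Flt3 depends on what is added to TPM, with log2 values of 6.54 with nothing added, 6.09 with 0.1 and 4.36 with 1, and it was 6.91 on counts. Both ratios were apart by the rule. The Csf1r locus overlaps Hmgxb3 on the other strand and Mir6983 in GENCODE, and the strandedness of the libraries was not given in the sources used here, so reads of the overlapping genes may not be separable.

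Csf1 (ENSMUSG00000014599.6, chr3:107741048-107760469, minus strand), the ligand also called macrophage colony-stimulating factor, was at 10.05 and 11.77 TPM in replicates 1 and 2. Il34 (ENSMUSG00000031750.11, chr8:110741829-110805924, minus strand), the ligand best known from skin and brain, was at 1.75 and 2.01 TPM, from 63 and 69 counts. Csf1 was thus 5.56-fold above Il34 in TPM (log2 2.47 ± 0.03, SD, n = 2), and the range of the 2 libraries did not overlap between the genes. On counts with no correction for length the ratio was log2 3.92 with the same direction, and by posterior mean TPM it was log2 2.16. The SD of the ratio is the spread between the libraries and leaves out the counting error of Il34. Its TPM intervals ran from 1.46 to 3.03 in replicate 1 and from 1.75 to 3.64 in replicate 2. Csf1r was 2.29-fold above Csf1 and 12.7-fold above Il34 (log2 3.67, and 5.65 on counts), so the receptor transcript exceeded that of either ligand in both pools.

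Both genes for other proteins reported to bind IL-34 were detected. Sdc1, the epithelial proteoglycan syndecan-1, was at 93.33 and 86.99 TPM, while Ptprz1, a receptor phosphatase of neural and glial cells, was at 1.48 and 1.55 TPM. Among 11 measured genes of related growth factors and receptors, 6 were detected, with a median of 1.445 TPM over all 11. Pdgfrb and Pdgfra, platelet-derived growth factor receptors of mesenchymal cells from the same receptor family as CSF1R, were the highest at 23.5 ± 0.962 and 22.5 ± 1.35 TPM (SD, n = 2). Pdgfrb lies 15536 bases from Csf1r on the same chromosome. Il3, a cytokine of early blood cells, had no count in either library, where the limit that a count of 0 allows is 3 counts. Flt3l could not be matched to an identifier and was not analysed here.

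All 10 genes of a list of signalling partners of CSF1R were detected, with a median of 7.02 ± 0.247 TPM (SD, n = 2). The highest were Grb2, an adaptor found in most cells, at 58.6 ± 3.48 TPM, and Tyrobp, the myeloid adaptor DAP12, at 49.0 ± 2.70 TPM. The lowest was Plcg2, a phospholipase of blood cells, at 3.12 ± 0.04 TPM. Of 10 transcription factors of myeloid cells, 9 were detected, with a median of 9.12 ± 1.07 TPM. Tfec, a factor expressed in macrophages, and Irf8, needed by macrophages and dendritic cells, led them at 64.4 ± 4.47 and 49.8 ± 3.71 TPM. Cebpb, a factor of inflammatory myeloid cells and many other cells, was the lowest at 0.56 and 0.80 TPM. Spi1, which encodes the myeloid factor PU.1 and was named after its values were seen, was at 3.63 and 5.20 TPM. Its expected counts were 179 and 187, so little of this difference was in counts. Tfec and Irf8 stood far above Spi1, and the cells that made the Tfec and Irf8 transcripts were not measured.

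The transcripts of the receptor and its ligands were read from the share of each gene's TPM assigned to each annotated transcript. Csf1r-202 held 92.7% and 99.1% of Csf1r, and the other transcript, Csf1r-201, has a coding sequence of the same 2931 bases. Csf1 was divided between messages with different coding sequences, and CSF1 is known in secreted and cell-surface forms made by alternative splicing. Csf1-202, with 771 coding bases, held 44.2% and 40.1% of Csf1, while Csf1-201 and Csf1-203, each with 1656 coding bases, together held 52.7% and 55.1%. The longer coding sequence therefore had the larger share in both libraries, although the largest single transcript was Csf1-202.

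For Il34, the coding transcript Il34-201 held 50.04% and 60.48% of the gene. Transcripts of Il34 with no coding sequence held 31.9% and 39.5%, which rested on 5.90 and 13.1 expected counts and were divided differently among the transcripts in each library. The level of its coding transcripts was 1.18 and 1.22 TPM, close to the detection minimum of 1. For Cx3cr1, Cx3cr1-202 held 63.4% and 69.8%, and the other, Cx3cr1-201, has the same 1062 coding bases. The same transcript was the largest in both libraries in 7 of 7 genes of the set that have more than 1 transcript. Of these 7 genes 4 had a mean of at least 5 TPM, and among all protein-coding genes with more than 1 transcript and that level the largest transcript was the same in 7301 of 7785 (93.8%).

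**Figure D2:**
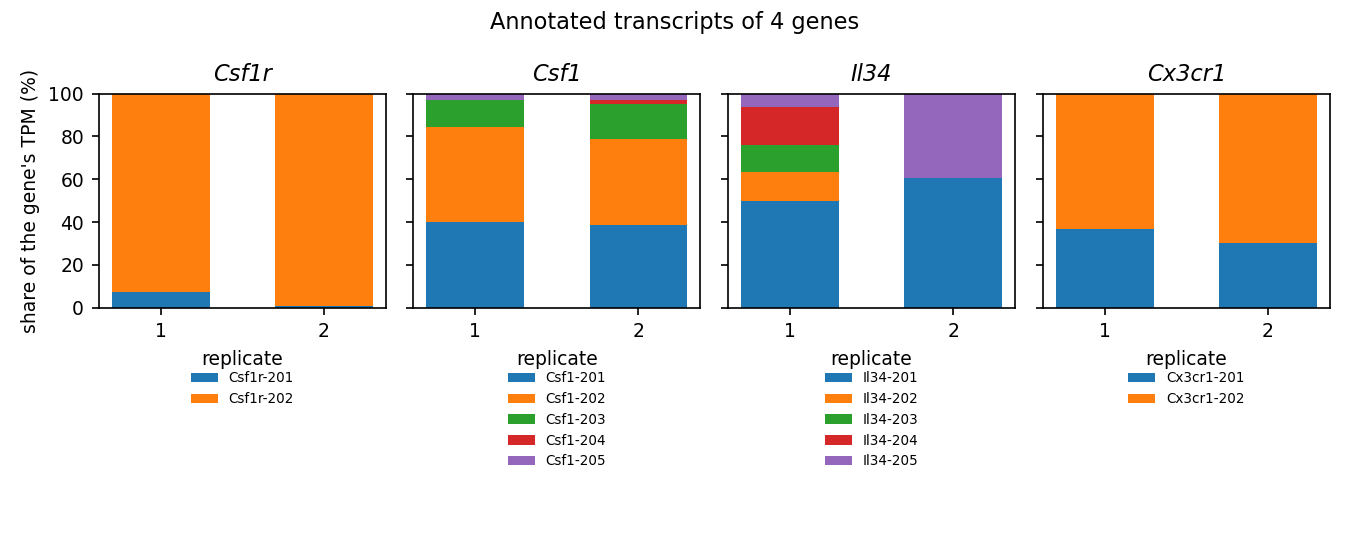
Share of each gene's TPM, in percent, assigned to its annotated transcripts, for Csf1r, Csf1, Il34 and Cx3cr1, with 1 stacked bar for each replicate. Csf1r-202 takes 92.7% and 99.1% of Csf1r, Csf1 is divided among transcripts in both libraries, and Il34 shows different minor transcripts in each.

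The complement genes C1qa, C1qb and C1qc encode the A, B and C chains of C1q, the recognition part of the classical complement pathway, which assembles from equal numbers of the chains and is made largely by macrophages. They lie side by side on the minus strand of chromosome 4 within 18675 bases, C1qb at chr4:136880129-136886187 (ENSMUSG00000036905.8), C1qc at chr4:136889804-136893065 (ENSMUSG00000036896.5) and C1qa at chr4:136895917-136898803 (ENSMUSG00000036887.5). The table of RefSeq promoters for GRCm38.p6 held 6 of the 10 genes. The 250 bases before their starts were searched on both strands for AGGAAGT, which contains the GGAA core bound by ETS factors such as PU.1. The motif was chosen with these sequences in view, so its share among them cannot be tested against that of other windows. It occurred in 4 of the 6, C1qb, C1qc, Mrc1 and Lyz2, and not in the windows of Csf1 and Cx3cr1, while 2525 of 32851 windows of the same length (7.69%) held it. The windows of C1qc, Mrc1, Cx3cr1 and Lyz2 reach into the gene as GENCODE draws it, and a match is a description of letters, not of binding. The window of C1qb (chr4:136886201-136886450, minus strand, mm10), which lies outside the gene in both annotations, is shown for its match 46 bases before the start, with ACTTCCT, the motif read from the other strand, in capitals.
C1qb: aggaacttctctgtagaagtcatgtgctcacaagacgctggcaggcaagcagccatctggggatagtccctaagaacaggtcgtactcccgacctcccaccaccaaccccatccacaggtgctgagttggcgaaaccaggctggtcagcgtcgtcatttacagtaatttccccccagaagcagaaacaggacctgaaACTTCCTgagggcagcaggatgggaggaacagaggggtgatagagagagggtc

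C1qb was at 65.16 and 66.18 TPM in replicates 1 and 2. C1qa was at 51.80 and 51.55 TPM, and C1qc was at 24.27 and 28.10 TPM. The ranges of the libraries did not overlap between the chains, and C1qc was the lowest in both. C1qb was 1.27-fold above C1qa (log2 of C1qa over C1qb -0.35 ± 0.02, SD, n = 2) and 2.51-fold above C1qc (log2 1.33 ± 0.13), and C1qa was 1.98-fold above C1qc. All 3 ratios were apart by the rule and by the TPM intervals. On counts with no correction for length the directions were the same. The log2 ratios there were -0.42 for C1qa over C1qb, 1.17 for C1qb over C1qc and -0.76 for C1qc over C1qa. Neither criterion can show a bias of a gene that both libraries share, such as in capture or annotated length. The summed TPM of the chains was 141 and 146.

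The proteases that C1q carries, encoded by C1ra and C1s1, were at 4.72 and 4.74 TPM and at 5.41 and 5.64 TPM. Their intervals overlapped in at least 1 library, the exception among the 17 gene pairs compared, all of which were apart by the rule. The share of all gene pairs that would pass the rule was not computed, so the count is not a result about these genes. Of 10 genes of the classical pathway other than the chains, 7 were detected. Serping1, the C1 inhibitor, was the highest at 53.43 and 53.39 TPM, followed by C2, which forms part of the C3 convertase, at 22.67 and 30.79 TPM. C1rb, a copy of the C1r gene, had no count in either library, and reads shared with C1ra could be divided between the copies.

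Among the surface receptors, Cx3cr1 (ENSMUSG00000052336.6, chr9:119901616-120069879, minus strand), the receptor for fractalkine, was at 7.93 and 7.11 TPM. Its gene record overlaps 9 other genes in GENCODE. The record reaches past the starts of both quantified transcripts, and whether their exons overlap other genes was not examined. Adgre1 (ENSMUSG00000004730.10, chr17:57358691-57483527, plus strand), which encodes a classical surface antigen of mouse macrophages, was at 4.18 and 4.71 TPM. Mrc1 (ENSMUSG00000026712.3, chr2:14229392-14332057, plus strand), the mannose receptor CD206, was at 3.95 and 4.33 TPM and contains the microRNA gene Mir511. These receptors stood near the median of protein-coding genes, above 56.6%, 49.9% and 49.2% of them. Csf1r exceeded each of them in both libraries, by 3.31-fold for Cx3cr1, 5.55-fold for Adgre1 and 5.94-fold for Mrc1, and Ptprc, the leukocyte antigen CD45, by 5.79-fold.

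Each surface receptor was also set beside its relatives. Mrc2, a collagen receptor of mesenchymal cells, was 1.40-fold above Mrc1 at 5.89 and 5.77 TPM, and Ly75, the family member DEC-205 of dendritic and thymic epithelial cells, was the lowest at 0.72 and 1.02 TPM. Adgre5, the broadly expressed leukocyte antigen CD97, was 7.46-fold above Adgre1 at 33.78 and 33.73 TPM, and Adgre4, another receptor of the family, was at 1.05 and 1.20 TPM. Cx3cl1, which encodes fractalkine, the ligand of CX3CR1, was 4.42-fold above its receptor at 28.93 and 38.88 TPM. Of 7 chemokine genes that act on myeloid cells 5 were detected, led by Cxcl12, a stromal chemokine, at 99.5 and 102.5 TPM, and the lowest was Ccl4, an inflammatory chemokine, at 0.55 and 0.31 TPM.

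Lyz2 (ENSMUSG00000069516.7, chr10:117277331-117282321, minus strand) encodes lysozyme M, an antibacterial enzyme of macrophages and neutrophils, and its neighbour Lyz1, 5475 bases away, encodes lysozyme P of Paneth cells. The annotated transcripts Lyz2-201 and Lyz1-201 were identical at 1211 of 1317 aligned positions (92.0%), and 24 of 1217 stretches of 100 bases in Lyz2-201 (1.97%) also occurred in Lyz1-201, so some reads could be divided between the genes. The 250 bases before the RefSeq starts were identical at 200 of 252 aligned positions (79.4%). They are shown because both hold the motif 93 bases before the start, in capitals as ACTTCCT, while the genes differed in level (chr10:117282273-117282522 for Lyz2 and chr10:117292869-117293118 for Lyz1, both minus strand, mm10). The last 49 bases of the Lyz2 window lie inside the gene in GENCODE.
Lyz2: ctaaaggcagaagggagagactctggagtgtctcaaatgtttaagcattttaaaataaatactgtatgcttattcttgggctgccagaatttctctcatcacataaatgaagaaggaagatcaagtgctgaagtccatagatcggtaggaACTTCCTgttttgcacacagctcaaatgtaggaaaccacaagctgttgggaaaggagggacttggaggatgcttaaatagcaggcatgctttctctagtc
Lyz1: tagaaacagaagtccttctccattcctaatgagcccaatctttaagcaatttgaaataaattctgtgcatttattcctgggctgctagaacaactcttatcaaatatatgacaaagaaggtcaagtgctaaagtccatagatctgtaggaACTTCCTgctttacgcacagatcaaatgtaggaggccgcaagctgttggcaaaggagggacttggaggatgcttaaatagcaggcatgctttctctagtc

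Lyz2 was at 82.89 TPM in replicate 1 and 71.28 TPM in replicate 2, the highest of the 10 genes in both. Lyz1 was at 14.76 and 15.09 TPM, from 506 and 502 expected counts. Lyz2 was 5.12-fold above Lyz1 (log2 2.36 ± 0.18, SD, n = 2). Of the other Paneth cell genes, Defa24, a defensin, was at 182.99 and 210.45 TPM, and Pla2g2a, a phospholipase, had no count in either library. Mmp7, the remaining gene of this list and named after its values were seen, was at 1.12 and 1.66 TPM from 32 and 46 counts. Defensin genes are near-identical copies, so the reads of Defa24 are uncertain. Whether Paneth cells were present was not tested.

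The label of the set was checked against further markers. Of 14 other macrophage genes 13 were detected, with a median of 10.1 ± 0.477 TPM (SD, n = 2). Fcer1g, the signalling chain of Fc receptors, and Laptm5, a lysosomal protein of blood cells, led them at 43.7 ± 1.14 and 30.4 ± 3.37 TPM. Mpeg1, the macrophage pore protein perforin-2, was the lowest at 0.83 and 0.88 TPM. Of 10 genes of resident and fetal macrophages 8 were detected, with a median of 7.37 ± 0.605 TPM, led by Gas6, a bridging ligand for dying cells, at 49.1 ± 2.91 TPM and Pf4, a chemokine also made by megakaryocytes, at 39.6 ± 0.976 TPM. Siglec1, the sialoadhesin of some resident macrophages, was the lowest at 0.31 and 0.25 TPM. The rest of this list, named after their values were seen, were spread widely. The means were 19.4 TPM for Stab1, 14.6 for F13a1, 12.5 for Lyve1, 2.205 for Folr2, 1.705 for Cbr2, 1.085 for Timd4 and 0.345 for Cd163. Which cells made the transcripts of Gas6 and the other genes of this list was not measured. The level of Gas6 therefore does not bear on the label, and the levels of the others do not settle it.

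Markers of macrophages of other organs and of other myeloid cells were examined in the same way. None of 4 liver macrophage markers was detected, with Cd5l at 0.95 and 0.49 TPM, Marco at 0.48 and 0.29 TPM and Vsig4 the lowest at 0.05 and 0.03 TPM. Of 4 brain macrophage markers 3 were detected, P2ry12 at 1.32 and 1.85 TPM and Tmem119 at 54.44 and 48.32 TPM, a gene also expressed by bone-forming cells. Siglech was the lowest of them at 0.86 and 0.71 TPM. Of 7 dendritic cell genes 2 were detected, Batf3 at 7.43 ± 0.354 and Zbtb46 at 5.39 ± 0.269 TPM, and Xcr1, which marks cross-presenting dendritic cells, was at 0.02 and 0.01 TPM. Of 5 monocyte genes 2 were detected, Plac8 at 380.48 and 373.88 TPM and Ccr2, the receptor that brings monocytes out of marrow, at 3.59 and 3.41 TPM. Chil3, a lectin of inflammatory monocytes and some macrophages, was the lowest at 0.31 and 0.47 TPM, from 13 and 3 expected counts.

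Genes of antigen presentation by MHC class II were detected in 4 of 5 cases. Cd74, the invariant chain, was at 46.48 and 50.46 TPM, H2-Ab1, a class II chain, was at 24.04 and 25.61 TPM, and Ciita, the master regulator of the class, was the lowest at 0.31 and 0.38 TPM. The lists for the main tissues of the gut wall had a median of 893 ± 18.1 TPM for 4 epithelial genes and 573 ± 35.1 TPM for 4 mesenchymal genes. The junction gene Cldn7 and the keratin Krt8 led the epithelial genes at 1199 ± 19.8 and 968 ± 33.2 TPM, and Cdh1, E-cadherin, was the lowest at 150.1 ± 6.45 TPM. The collagens Col3a1 and Col1a1 led the mesenchymal genes at 1247 ± 59.9 and 813 ± 73.0 TPM, and the proteoglycan Lum was the lowest at 233 ± 13.4 TPM. Endothelial genes had a median of 29.4 ± 0.718 TPM, with Plvap at 64.0 ± 5.84, Pecam1 at 41.3 ± 0.212 and Cdh5, the lowest, at 16.0 ± 1.16 TPM. Lymphatic endothelial genes had a median of 11.4 ± 0.04 TPM, led by Ccl21a at 56.0 ± 3.05 and Pdpn at 19.2 ± 0.233 TPM, and of these Prox1, the master regulator of lymphatic fate, was at 1.5 and 1.56 TPM.

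**Figure D3:**
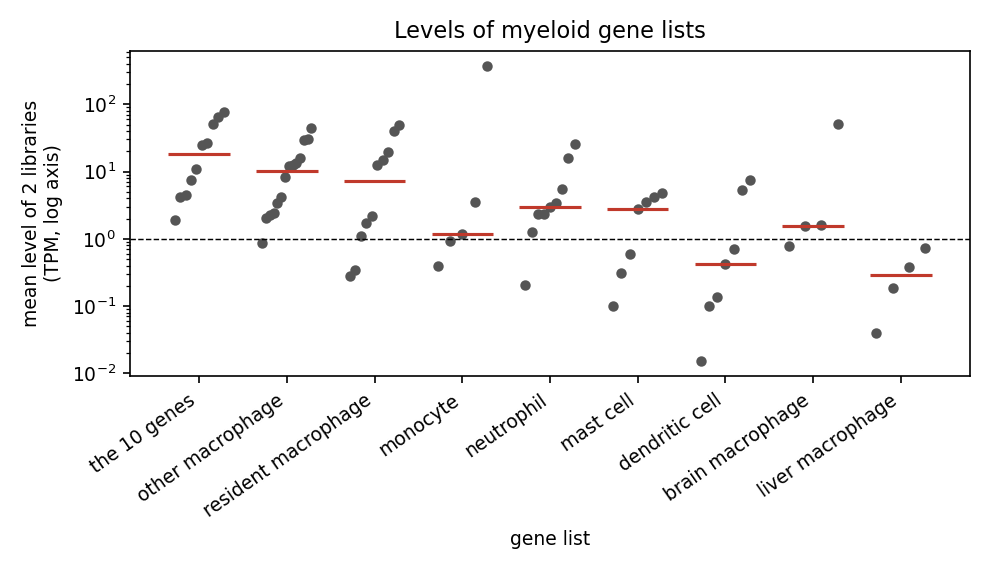
Mean level over the 2 libraries in TPM on a log axis, with 1 point for each gene, the median of each list as a red line and the detection minimum of 1 TPM dashed. The 10 genes all lie above the dashed line, as do 13 of 14 other macrophage genes, while all 4 liver macrophage markers lie below it.

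The pools were then compared gene by gene, as the log2 ratio of TPM (with 0.1 added) of replicate 2 to replicate 1, relative to the median of 13509 protein-coding genes with a mean of at least 1 TPM. None of the 10 genes differed by more than 1.5-fold, as 3.85% of those genes did. With 1 library for each pool this comparison has no test and no p. The largest difference was that of Csf1r, 1.20-fold higher in replicate 2. The median size of the difference was 0.19 for the 10 genes and 0.12 for all genes on the log2 scale.

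Within those limits, 8 of the 10 genes were higher in replicate 2 and 2 were lower. The centring on the median gene puts as many of all genes compared above it as below it. Without the centring C1qa was lower too, at -0.01. On the log2 scale the differences were 0.26 for Csf1r, 0.24 for Csf1, 0.23 for C1qc and 0.20 for Il34. They were 0.18 for Adgre1, 0.14 for Mrc1, 0.04 for C1qb and 0.01 for C1qa. Cx3cr1 and Lyz2 were lower in replicate 2, at -0.14 and -0.20. Whether these differences themselves differ between genes was not tested. The exact 95% interval of the count ratio, which covers counting error only, excluded 1 for 6 of the 10 genes, namely Csf1r, Csf1, C1qc, Cx3cr1, Mrc1 and Lyz2, and for 46.0% of all genes compared. Il34, with the fewest counts, had an interval from 0.794 to 1.62.

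Markers of other blood cells were compared in the same way, and those of neutrophils and red cells held the larger differences. Of 8 neutrophil genes with a mean of at least 1 TPM, 7 were lower in replicate 2 and 6 of them by more than 1.5-fold, where 1.47% of all genes compared were lower by that much. S100a8 and S100a9, the subunits of calprotectin, were at 34.34 and 16.37 TPM and at 23.16 and 8.64 TPM, and Cxcr2, a chemokine receptor of mature neutrophils, was the lowest at 0.18 and 0.23 TPM. The summed TPM of the 9 neutrophil genes was 81.6 in replicate 1 and 37.3 in replicate 2. Lyz2, which neutrophils also express, was lower in the same library, and the part of neutrophil RNA in its difference was not tested. All 4 red cell genes were lower in replicate 2, 3 of them by more than 1.5-fold, and their summed TPM was 105 and 74.7. Alas2, the first enzyme of heme synthesis in red cells, was at 67.91 and 53.2 TPM, Slc4a1, the band 3 anion exchanger, at 16.46 and 9.51 TPM and Klf1, an erythroid transcription factor, at 8.81 and 4.15 TPM. Of 7 mast cell genes 4 were detected, and all 4 were lower in replicate 2, none by more than 1.5-fold, with a median log2 difference of -0.25. Cpa3 and Cma1, mast cell proteases, were the highest of them at 4.76 ± 0.495 and 4.19 ± 0.940 TPM (SD, n = 2), and Fcer1a, the IgE receptor chain, was the lowest at 0.08 and 0.12 TPM. Both dendritic cell genes compared were lower in replicate 2 by less than 1.5-fold, with a median log2 difference of -0.08, and of 3 monocyte genes compared 1 passed that fold. Among the 13 other macrophage genes compared, 6 were higher and 7 lower in replicate 2, none by more than 1.5-fold, with a median log2 difference of -0.01.

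**Figure D4:**
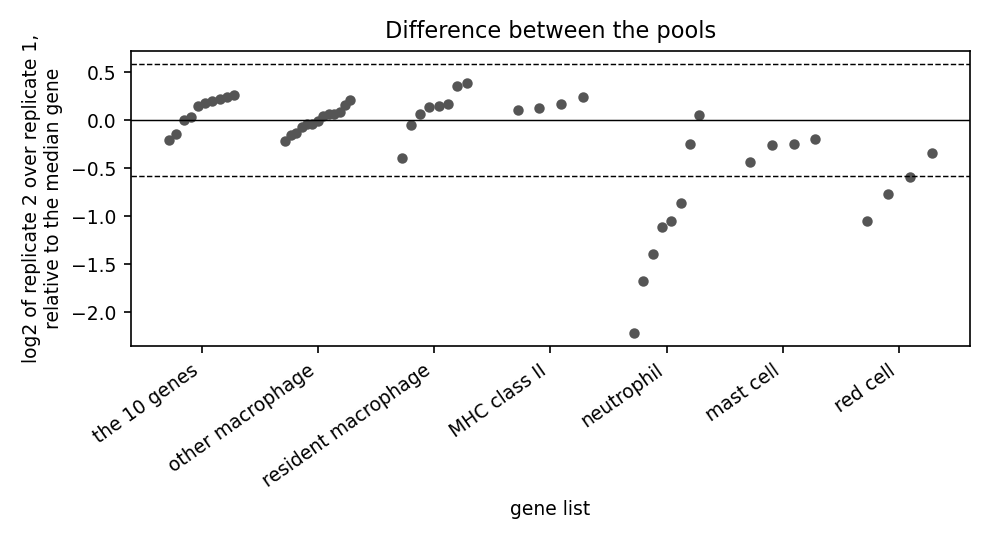
Log2 ratio of TPM of replicate 2 to replicate 1, relative to the median gene, with 1 point for each gene with a mean of at least 1 TPM and dashed lines at 1.5-fold. The 10 genes and the other macrophage genes lie between the dashed lines, while 6 of 8 neutrophil genes lie below the lower one.

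Single genes of the other lists passed 1.5-fold, and they were named for that after their values were seen. Inpp5d, the inhibitory phosphatase SHIP1 of blood cells, was the sole gene of the 10 signalling partners to do so, at 2.89 and 4.48 TPM, but its expected counts were 379 and 372, so the difference was in TPM and not in counts. Among the complement genes C3, the central component, was 1.63-fold lower in replicate 2, at 6.98 and 4.21 TPM. Ccl12, a monocyte chemokine, was at 1.16 and 2.32 TPM from 15 and 29 counts, and Ly6c2, a surface antigen of inflammatory monocytes, was at 1.58 and 0.81 TPM from 34.4 and 17.7 expected counts. None of the transcription factors or resident macrophage genes passed that fold.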

How the data were processed

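Total RNA was measured in 2 libraries, each made from 10 ng. Per the labels, RNA was extracted with mirVana and ERCC spike-ins were added, and a SMARTer kit manual is cited. Per the text deposited with the files, the annotation was GENCODE M4 on mm10; aligner and quantifier were not given in the sources used here. Expected counts, as deposited, are estimates of the reads from each feature, the deposited TPM divides them by effective length and scales them to a fixed total, the deposited FPKM (not used for results) scales by length and assigned reads, and the deposited percent gives each transcript's share of its gene. Reads shared by features are divided among them, which makes values of near-identical genes uncertain. Deposited TPM intervals have no stated level.

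Symbols and coordinates came from GENCODE M21, which 42462 of 43346 identifiers (98.0%) matched. Means and SDs cover the 2 libraries. Scaling alternatives used edgeR 4.0.16 and DESeq2 1.42.0 in R 4.3.3, with expected counts first rounded to integers; other work used Python 3.11.15, pandas 2.3.3, scipy 1.17.1 and Biopython 1.88. Intervals are exact (Clopper-Pearson), and cover counting error only, since the reads carry no molecular identifiers.

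The 10 genes and the gene lists were chosen with earlier results of these data known. The named genes were the 10, both genes of 17 pairs, the 2 highest and the lowest of each list and genes with no count; exceptions are marked. Counting intervals and the promoter motif were added after the values were seen. The labels number the pools as separate biological replicates, with separate biosamples and the same donor identifier. Nothing else in the sources used here says how independent the pools are, and their spread may be partly technical.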

Additional observations from a re-analysis of the deposited data

How the results depend on the processing

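No paired analysis was possible because all samples belong to 1 group. Of 30 alternative values of the summary results (detection minimum, posterior means, each library left out, pseudocounts, fold and SD minimums, scalings and count normalisations), 29 stayed within the limits set for them. The other was the median level of the 10 genes, 20.8 TPM with TPM rescaled over protein-coding genes. Some settings could only repeat the result, such as a detection minimum of 0.5 TPM, a fold minimum of 2 or an SD minimum of 2. At a minimum of 5 TPM, 7 of the 10 genes counted as detected, which was taken as within the limit. Among values for single genes, pairs and transcripts, 14 moved beyond their limits and 135 did not. The 14 included the level of each of the 10 genes with TPM rescaled over protein-coding genes. Without centring on the median gene, 7 instead of 8 of the genes were higher in replicate 2; the scalings shifted the median gene by at most 0.03 on the log2 scale. C1qa was the gene that turned, from 0.01 to -0.01 on the log2 scale; no called difference reversed. Low counts limit Il34 and its transcripts: Il34-201 was 36.7% of the gene by posterior means.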
